A study of Rattus norvegicus and Mus musculus with 17 samples.

Results

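The genes described here encode the enzymes that liver cells use to conjugate, hydrolyse and oxygenate drugs, hormones and bile pigments. They were taken by symbol from 3 deposited expression tables: every UDP-glucuronosyltransferase (Ugt1, Ugt2 and Ugt3 genes), sulfotransferase (Sult), cytosolic or microsomal glutathione transferase (Gst and Mgst), carboxylesterase (Ces1, Ces2 and Ces3), flavin monooxygenase (Fmo with a digit) and epoxide hydrolase (Ephx). The rule took 47 of 4649 genes listed for mouse liver with and before chemically induced tumours, 38 of 9082 genes listed for a transplanted rat hepatoma and control liver, and 5 of 2093 genes listed for regenerating and control rat liver. Over the rat tables these were 40 genes, 3 of them in both. Over all tables the rule took 87 genes of 14072 in mouse and rat.

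The RNA came from whole male liver or tumour. C57BL/6 mice had received 50 mg/kg of diethylnitrosamine (DEN), a liver carcinogen, at 14 days of age and 2 mg/kg of TCPOBOP 30 days later. TCPOBOP activates the nuclear receptor CAR, which drives many genes of drug metabolism, and both mouse groups had received both compounds. One group was sampled at 5 months of age, before tumours (n = 3 libraries), and the other at 8 months, with tumours (n = 3). Age, time since DEN and TCPOBOP, and tumours therefore cannot be told apart. The older libraries are labelled as tumor with liver as their source, and how much tumour tissue each holds is not stated. ACI rats of 10 weeks received 1000000 cells of MH3924a, a Morris hepatoma cell line, into the liver, and tumour tissue was collected after 2 weeks (n = 4). Regenerating liver came from ACI rats of 10 to 12 weeks, 24 hours after partial hepatectomy (n = 4). Untreated ACI liver served as the control for both (n = 3), and these 3 control libraries enter both rat comparisons. Whether every library came from its own animal is not stated, so p-values measure only the spread between libraries, which may be technical.

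Conjugation makes a compound more soluble and ready for export. Glucuronosyltransferases attach glucuronic acid in the endoplasmic reticulum, sulfotransferases attach sulfate in the cytosol, and glutathione transferases attach glutathione to reactive compounds. Carboxylesterases split esters, including ester drugs and stored lipids, flavin monooxygenases add oxygen to nitrogen or sulfur atoms, and epoxide hydrolases open epoxides. Most are abundant in hepatocytes, and many are induced there by CAR, PXR or the aryl hydrocarbon receptor, while NRF2 is known for inducing glutathione transferases.

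Values are RPKM (reads scaled by transcript length and library size, so that levels of different genes can be compared per length), in which 0.001 stands for no reads. All genes in the tables have a p-value of the authors under 0.05, so most listed genes differ between their groups and genes of these families that are not listed are not analysed here. Where a gene is called the most abundant below, this is by group mean among the listed genes. Differences below are differences of mean log2(RPKM + 1) between groups, tested two-sided with limma and called at an adjusted p under 0.05. A value after ± is the standard error of such a difference. This scale understates changes of low genes. As alternatives, library medians were set equal, or whole distributions were made equal (quantile normalization). Both used the listed genes alone, most of which differ between their groups. These scalings therefore rest on no unchanged genes and can take out part of a real difference. The sum over all listed genes ranged from 341628 to 396099 RPKM per library in the mouse table, from 352002 to 635520 in the hepatoma table and from 57181 to 77208 in the regenerating table. Read depth per library is unknown, so no counting error can be given. Near-identical copies are frequent among Ugt2b, Ces, Gstm and Sult genes, and Ugt1a genes share their last exons, so the split of reads between such neighbours is uncertain.

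Summed levels of cell type markers differed between the groups. In mice, 4 of 9 hepatocyte markers were listed, and their summed level was 37977 to 50449 RPKM before tumours and 122296 to 137991 with tumours. Among them Alb and Apoa1, which make up most of the sum, rose, and Serpina1a and Cps1 did not pass the test. Cps1 was lower with tumours (156 to 233 RPKM before, 40.1 to 133 with tumours). The 5 listed of 8 endothelial markers summed to 15.7 to 21.2 RPKM before and 25.4 to 44.8 with tumours. Pecam1, Cdh5, Emcn and Cd34 rose, while Tek was lower with tumours (1.78 to 1.93, then 0.702 to 1.54 RPKM) and did not pass. The 4 listed of 9 macrophage markers summed to 63.1 to 71.3 RPKM before and 25.2 to 44.9 with tumours. Of these the Kupffer cell marker Clec4f fell (30.2 to 39.7, then 2.82 to 14.2 RPKM) and Cd68 rose (13.8 to 15.1, then 18.8 to 21.2). The NK marker Klrb1b, the 1 listed of 7 T and NK markers, was at 0.202 to 3.12 RPKM before and 38.5 to 72.7 with tumours. In rats, 8 of 9 hepatocyte markers were listed and summed to 81483 to 105471 RPKM in control liver and 34.9 to 21453 in hepatoma. All 8 had lower means in hepatoma, but none of them passed the test. The 6 listed of 8 stellate and fibroblast markers summed to 20.1 to 83.7 RPKM in control and 457 to 1149 in hepatoma, and 4 proliferation markers to 1.33 to 9.10 and 248 to 402. For regenerating liver no hepatocyte marker was listed, and the 4 proliferation markers summed to 32.4 to 113. The mouse stellate marker Acta2 was at 2.76 to 5.20 RPKM before and 11.0 to 19.5 with tumours, and 4 proliferation markers summed to 1.73 to 2.51 and 6.58 to 15.6. In hepatoma 3 endothelial markers summed to 45.5 to 74.7 RPKM (control 6.48 to 11.6), 3 macrophage markers to 121 to 164 (109 to 133), and the bile duct marker Spp1 was at 182 to 265 (0.58 to 1.33). Among the 3 macrophage markers Clec4f fell (70.2 to 91.9 RPKM in control, 6.02 to 26.8 in hepatoma), while Cd68 rose (28.4 to 34.4 in control, 79.4 to 122 in hepatoma) and so did Cd163. In the mouse and hepatoma tables no listed marker was without reads other than the T cell marker Cd3g in 1 rat control library. The part of these shifts in the results below was not tested. In these bulk samples fewer cells of a type and less RNA per cell cannot be told apart.

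In DEN-treated mouse liver, most of the listed enzymes were lower once tumours were present, across every family. Of 46 genes that could be tested, 38 fell, 2 rose (Ces2e and Fmo4) and 6 did not pass. Over all genes tested in this table, 49.5% fell and 17.9% rose. The median difference was -1.79 over the enzymes and -0.56 over all tested genes. The range of values before tumours did not overlap the range with tumours in any of the 47 listed enzymes, which was so for 4648 of all 4649 listed genes (100% after rounding). With library medians set equal, the enzymes had 30 genes lower and 4 higher, and all genes had 702 lower and 925 higher in place of 1823 and 658, while the median of all genes moved to -0.22. After quantile normalization 23 enzymes were lower and 3 higher, with 588 and 882 of all genes. The deeper falls were among sulfotransferases and carboxylesterases, and the plot of mouse enzymes by library shows this order.

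**Figure D1:**
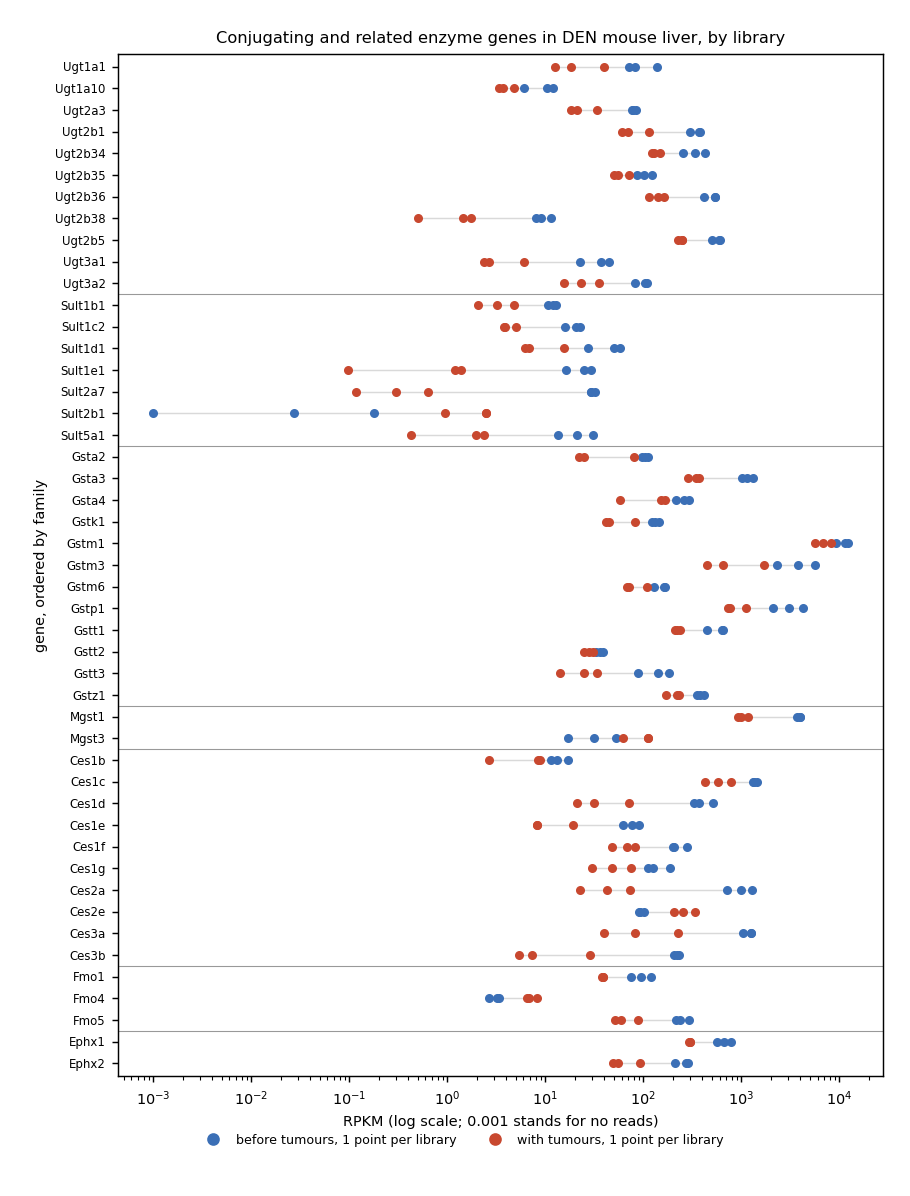
RPKM of the 47 listed enzymes in DEN mouse liver on a log scale, 1 point per library, 3 libraries before tumours (blue) and 3 with tumours (red), ordered by family. In 43 genes all red points lie to the left of the blue points, and in Sult2b1, Mgst3, Ces2e and Fmo4 they lie to the right.

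All 11 glucuronosyltransferases fell, with log2 differences from -0.79 to -2.96. Ugt2b5, the most abundant, was at 497, 612 and 593 RPKM before tumours and at 225, 246 and 246 with tumours, a log2 difference of -1.24 ± 0.15 (SE; limma adjusted p = 0.0016). The groups did not overlap, but after quantile normalization the difference was -0.41 and did not pass (adjusted p = 0.26). Ugt3a1, a member of a small family that uses other sugars than glucuronic acid, showed the largest fall, from 36.8, 45.1 and 22.4 to 2.64, 6.04 and 2.40 RPKM (-2.96 ± 0.35, adjusted p = 0.0024). Ugt2b38, a low gene, went from 9.13, 11.5 and 8.07 to 0.506, 1.73 and 1.44 RPKM (-2.28 ± 0.23, adjusted p = 0.00089). The 7 listed Ugt2 genes lie side by side on mouse chromosome 5, and all were lower. Ugt2b1 was at 382, 368 and 302 RPKM before and 114, 61.2 and 69.7 with tumours (-2.13). Ugt2a3 was at 79.2, 77.6 and 84.4 RPKM before tumours and 18.4, 33.7 and 21.1 with tumours (-1.73). Ugt1a1, the enzyme that conjugates bilirubin, was at 139, 71.9 and 81.8 RPKM before and 12.4, 40.0 and 18.3 with tumours. Its difference (-2.10 ± 0.43, adjusted p = 0.023) missed the threshold when any of 4 libraries was left out, with adjusted p up to 0.12. The others (Ugt1a10, Ugt2b34, Ugt2b35, Ugt2b36 and Ugt3a2) fell, with differences from -0.79 to -2.01. Of these, Ugt1a10 and Ugt2b35 also missed the threshold without any of 4 libraries each, with adjusted p up to 0.1 and 0.13. Ugt1a10 and Ugt2b35 did not pass with library medians set equal (-0.71 and -0.40), and these genes, Ugt2b34 (-0.56) and Ugt1a1 (-1.47) did not pass after quantile normalization.

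The 6 tested sulfotransferases fell as well, and their summed level over 7 listed genes was 126 to 172 RPKM before tumours and 15.5 to 30.6 with tumours. Sult2a7, of the subfamily that sulfates bile acids and hydroxysteroids, was at 29.5, 29.3 and 32.1 RPKM before and 0.119, 0.641 and 0.301 with tumours, a log2 difference of -4.55 ± 0.16 (SE; limma adjusted p = 1.9e-05). It was close to absent in all libraries with tumours, and its group means differed 85.7-fold. Sult1e1, the oestrogen sulfotransferase, went from 29.0, 16.4 and 25.0 to 1.40, 1.21 and 0.0975 RPKM (-3.73 ± 0.33, adjusted p = 0.00084). Sult5a1 went from 21.2, 30.9 and 13.6 to 1.95, 2.35 and 0.424 RPKM (-3.17 ± 0.39, adjusted p = 0.0031). In these 3 genes even the highest library with tumours lay far under the lowest before tumours. Sult1d1, the most abundant sulfotransferase before tumours, was at 57.3, 50.3 and 27.4 RPKM and then 6.82, 15.7 and 6.25 (-2.16 ± 0.39, adjusted p = 0.013). Its call was lost without library 1 or 2 before tumours or library 3 with tumours, with adjusted p up to 0.058. Sult1b1, known for sulfating thyroid hormones, was at 12.8, 10.6 and 12.0 RPKM before tumours and 3.22, 4.81 and 2.06 with tumours (-1.60), and Sult1c2 fell by 1.98. Sult2b1, which sulfates cholesterol and other sterols, moved the other way but was too low to be tested: it was at 0.001, 0.177 and 0.0275 RPKM before and 2.47, 0.947 and 2.47 with tumours.

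The listed glutathione transferases had the highest levels per length of all families in these livers. The 14 listed cytosolic and microsomal forms summed to 20282 to 27906 RPKM before tumours and to 9257 to 13095 with tumours. Gstm1 alone was at 12242, 11389.5 and 9286 RPKM before and 8282, 5603 and 6811 with tumours. Its difference of -0.68 ± 0.20 did not pass the test (adjusted p = 0.065), and its share of the summed level was 43.0% to 45.8% before and 60.5% to 64.8% with tumours. Gstm3, its neighbour on chromosome 3, fell further, from 5632, 3771 and 2334 to 1710.2, 657 and 447 RPKM (-2.21 ± 0.53, adjusted p = 0.043). That call was lost when any library but library 1 with tumours was left out, with adjusted p up to 0.15. Gstp1, a detoxifying form of many epithelia and tumours, fell in mice, from 3048, 4263 and 2105 to 769.5, 728 and 1122 RPKM (-1.81 ± 0.28, adjusted p = 0.005). After quantile normalization it did not pass (-0.75, adjusted p = 0.4). Mgst1, the main membrane-bound form, went from 3713, 4012 and 3958 to 925, 1169.8 and 982 RPKM (-1.93 ± 0.16, adjusted p = 0.00033), with little spread in either group.

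Theta-class Gstt3 showed the largest fall of the cytosolic forms, from 182, 143 and 87.9 to 33.5, 14.2 and 24.6 RPKM (-2.48 ± 0.36, adjusted p = 0.0052). Gstz1, which also acts in tyrosine breakdown, was at 421, 381 and 357 RPKM before and 232, 219 and 169 with tumours (-0.91). Gstk1, a mitochondrial and peroxisomal form, was at 124, 146 and 132 RPKM before tumours and 81.9, 45.1 and 42.1 with tumours (-1.30). Each of these calls was lost without 1 library, library 1 before tumours for Gstz1 (adjusted p = 0.054) and library 2 before tumours for Gstk1 (adjusted p = 0.057). Gsta3, Gstm6 and Gstt1 fell, with differences from -0.90 to -1.80, but Gstm6 not without library 2 or 3 before tumours or library 3 with tumours (adjusted p up to 0.11). Gstm3, Gstz1, Gstk1 and Gstm6 did not pass with library medians set equal (-1.81, -0.51, -0.90 and -0.51) or after quantile normalization, where Gstt1 did not pass either (-0.51). Gsta4, which clears the lipid peroxidation product hydroxynonenal, was at 289.7, 261 and 218 RPKM before tumours and 152, 57.8 and 168 with tumours and did not pass (-1.15, adjusted p = 0.14). Gsta2 and Gstt2 did not pass either (-1.53 and -0.36), and Gstt2 changed sign with library medians set equal (0.022) and after quantile normalization (0.24). Mgst3 had a higher mean with tumours, at 17.0, 31.4 and 53.3 RPKM before and 111, 61.8 and 113 with tumours, and did not pass (1.55 ± 0.42, adjusted p = 0.062). It passed with library medians set equal, at 1.94.

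Carboxylesterases split into 8 genes that fell, 1 that rose and 1 that did not pass. Ces2a, which splits ester drugs and acylglycerols, was at 1272, 1005 and 720.5 RPKM before tumours and 43.1, 72.5 and 22.4 with tumours, a log2 difference of -4.52 ± 0.42 (SE; limma adjusted p = 0.001). Its group means differed 21.7-fold, and the highest library with tumours lay far under the lowest before. Ces2e, in the same gene cluster on mouse chromosome 8, rose from 91.9, 101 and 89.7 to 255, 207 and 338 RPKM, a log2 difference of 1.46 ± 0.19 (SE; limma adjusted p = 0.0024). Every library with tumours lay above every library before. The neighbours Ces3a and Ces3b fell, Ces3a from 1032, 1248 and 1255 to 39.6, 229 and 83.0 RPKM (-3.67). Ces3b went from 220.4, 204 and 234 to 5.38, 28.6 and 7.32 RPKM (-4.24). Library 2 with tumours was the highest of its group for both, and the Ces3a call was lost without library 3 with tumours (adjusted p = 0.07). 

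The 6 listed Ces1 genes, Ces1b to Ces1g, lie in a row on chromosome 8, and all had lower means. Ces1d, the triacylglycerol hydrolase, went from 512, 326 and 370.5 to 21.1, 72.0 and 31.3 RPKM (-3.41 ± 0.42, adjusted p = 0.0031). Ces1e went from 76.1, 62.3 and 90.2 to 8.33, 19.1 and 8.15 RPKM (-2.67 ± 0.31, adjusted p = 0.0018). Ces1c, a secreted esterase of mouse plasma and the most abundant of the family, fell less, from 1351, 1302 and 1440.3 to 584, 776 and 429 RPKM (-1.23 ± 0.22, adjusted p = 0.0082). With library medians set equal (-0.84, adjusted p = 0.085) and after quantile normalization (-0.18) Ces1c did not pass. It made up 27.2% to 31.3% of the summed carboxylesterase level before tumours and 42.0% to 52.0% with tumours. Ces1f and Ces1g fell by 1.78 and 1.51, Ces1g not when library 1, 2 or 3 before tumours or library 2 with tumours was left out (adjusted p up to 0.1), and Ces1b did not pass (-1.07 ± 0.39, adjusted p = 0.18). Ces1g did not pass with library medians set equal (-1.11), nor Ces1g and Ces1f after quantile normalization (-0.77 and -0.99).

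Flavin monooxygenases and epoxide hydrolases followed the same direction with 1 exception. Fmo5 was at 293, 236 and 217 RPKM before tumours and 51.5, 87.5 and 59.0 with tumours (-1.92 ± 0.22, adjusted p = 0.0012), and Fmo1, which oxygenates amines and sulfides, fell by 1.27. Fmo4, next to Fmo1 on chromosome 1, rose from 3.41, 2.67 and 3.24 to 8.17, 6.59 and 6.85 RPKM (1.00 ± 0.14, adjusted p = 0.0029). Its levels were low, and its groups did not overlap. Ephx1, the microsomal enzyme for epoxides of foreign compounds, went from 794, 669 and 563 to 296, 301 and 301 RPKM (-1.16 ± 0.17, adjusted p = 0.0031), with the 3 libraries with tumours nearly equal. After quantile normalization Ephx1 (-0.36, adjusted p = 0.49) and Fmo1 (-0.59) did not pass. Ephx2, the soluble enzyme for fatty acid epoxides, fell by 1.97.

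Other genes of the pathway were read from lists chosen for this question. Of 24 genes for the supply and turnover of glucuronate, sulfate and glutathione donors, 11 were tested in mice, of which 8 fell and 1 rose, with a median of -1.12 (all tested genes: 49.5% fell, 17.9% rose, median -0.56). Gnmt, Ahcy and Cth of methionine and cysteine metabolism fell by 2.63, 1.94 and 1.51, and Gss, the glutathione synthetase, rose by 0.90. A list of 22 genes, made of regulators and the P450 reductase Por, an electron donor, had 11 genes tested and 10 that fell (median -0.83), with Ahr (-2.24), Por (-2.15) and the bile acid receptor Nr1h4 (-1.96) furthest. Of 22 other transferases and hydrolases, 9 were tested and all 9 fell, with Inmt (-4.10), Pon1 (-3.69) and Nat8 (-2.69) furthest. Of 10 efflux transporters 2 were tested: Abcb1a rose by 1.06 and Abcc6 fell by 1.30. With library medians set equal 4 donor genes were lower and 3 higher, 3 of the regulator list were lower, and 6 of the other transferases and hydrolases were lower. After quantile normalization 1 donor gene was lower and 3 were higher, 2 of the regulator list were lower, and 4 of the other transferases and hydrolases were lower.

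In the Morris hepatoma the same families were mostly far lower than in control rat liver, with 4 exceptions that rose. Of 37 tested genes 26 fell, 4 rose (Gstp1, Gstm5, Mgst2 and Ugt1a7c) and 7 did not pass. In this table the background ran the other way, with 8.73% of all tested genes lower and 85.5% higher. The median difference was -3.46 over the enzymes and 1.58 over all tested genes. With library medians set equal the enzymes had 33 genes lower and 2 higher, and all genes 2372 lower and 2263 higher in place of 719 and 7042, while the median of all genes moved to -0.01. Ranges did not overlap in 37 of 38 listed enzymes and in 98.3% of all listed genes. Ephx3, an epoxide hydrolase too low to be tested, was listed at 0.001 in all 3 controls and at 0.296, 0.425, 0.0907 and 0.29 RPKM in hepatoma.

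Single libraries weighed on the counts of falls. Among the 33 enzymes with a lower mean in hepatoma, hepatoma library 2 was the lowest of its group in 32, and libraries 1 and 2 were both below libraries 3 and 4 in 32. Control library 3 was the lowest control in 30, at a median of 35.6% of the mean of the other controls, and the highest control in 1 (Sult2a1). Without control library 3 there were 24 genes lower and 4 higher, and without hepatoma library 2 there were 26 and 4. Without control library 1 or control library 2 only 9 remained past the threshold in each case, and without hepatoma library 1 there were 12. Falls over all tested genes numbered 719 with every library, 353 and 346 without control library 1 or 2, and 483 without hepatoma library 1. They numbered 609 without control library 3 and 639 without hepatoma library 2. The 4 rises passed with any library left out, and so did the falls of 9 genes: Ugt2a3, Ugt2b, Ugt2b10, Gsta4, Gstz1, Mgst1, Ces2e, Ces2h and Fmo4. The other 17 falls were lost in at least 1 of these fits. The plot of rat enzymes by library marks control library 3 and hepatoma library 2.

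**Figure D2:**
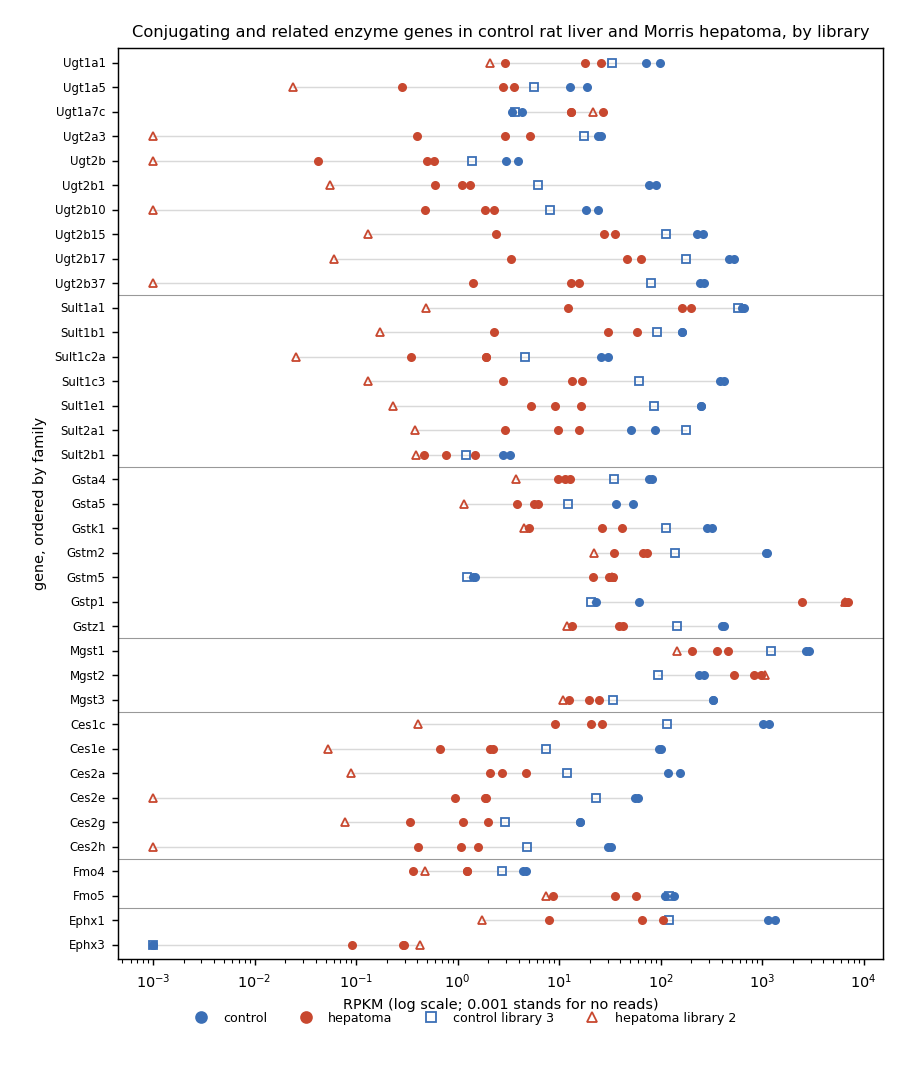
RPKM of 37 of the 38 listed enzymes in control rat liver (blue, 3 libraries) and Morris hepatoma (red, 4 libraries) on a log scale, 1 point per library, ordered by family, with control library 3 and hepatoma library 2 drawn as open symbols. Hepatoma library 2 (open triangles) is far to the left in most UGT, SULT and CES genes, and Gstp1, Gstm5, Mgst2, Ugt1a7c and Ephx3 are the genes whose hepatoma points lie to the right of the controls.

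Gstp1 showed the largest difference of the 37 enzymes tested in the hepatoma. This form, called placental in rats, has long been used there as a marker of preneoplastic liver foci. It was at 23.2, 61.6 and 20.6 RPKM in control liver and at 7007, 6623, 2484 and 6606 in hepatoma. Each hepatoma library was far above each control, and library 3 was the lowest of the 4. The means differed 162-fold, with a log2 difference of 7.36 ± 0.49 (SE; limma adjusted p = 4.6e-06). Gstm5, a mu-class form, was at 1.49, 1.41 and 1.23 RPKM in control and 34.1, 33.6, 21.7 and 31.3 in hepatoma, again lowest in library 3 (3.69 ± 0.19, adjusted p = 6.3e-07). Both rose under every scaling tried.

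Mgst2, a membrane form that can make leukotriene C4, rose from 267, 239 and 93.4 to 981, 1059.6, 532 and 825 RPKM (2.17 ± 0.40, adjusted p = 0.0014). Ugt1a7c, a form known for conjugating phenols of carcinogens, rose from 3.47, 4.32 and 3.69 to 27.3, 21.7, 13.2 and 13.1 (1.98 ± 0.26, adjusted p = 0.00014). For these 2 genes the groups did not overlap, but the difference shrank to 0.21 for Mgst2 and 0.24 for Ugt1a7c with library medians set equal, where neither passed. After quantile normalization Mgst2 passed and Ugt1a7c did not. Its neighbour on rat chromosome 9, Ugt1a5, fell by 2.48, but not without control library 1 or 2 or hepatoma library 1 (adjusted p up to 0.15) or with a pseudocount of 0.1 (0.11).

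The make-up of the listed glutathione transferases differed between the groups, through rises and falls, as the stacked plot of summed levels shows. The 10 listed forms summed to 1813 to 5485 RPKM in control and 3688 to 8305 in hepatoma, ranges that overlap. Gstp1 made up 0.423% to 1.16% of that sum in control liver and 67.4% to 84.4% in hepatoma. Mgst1 was the largest listed form in each control library, with 51.4% to 67.2%, and its mean fell from 2283 to 292 RPKM.

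**Figure D3:**
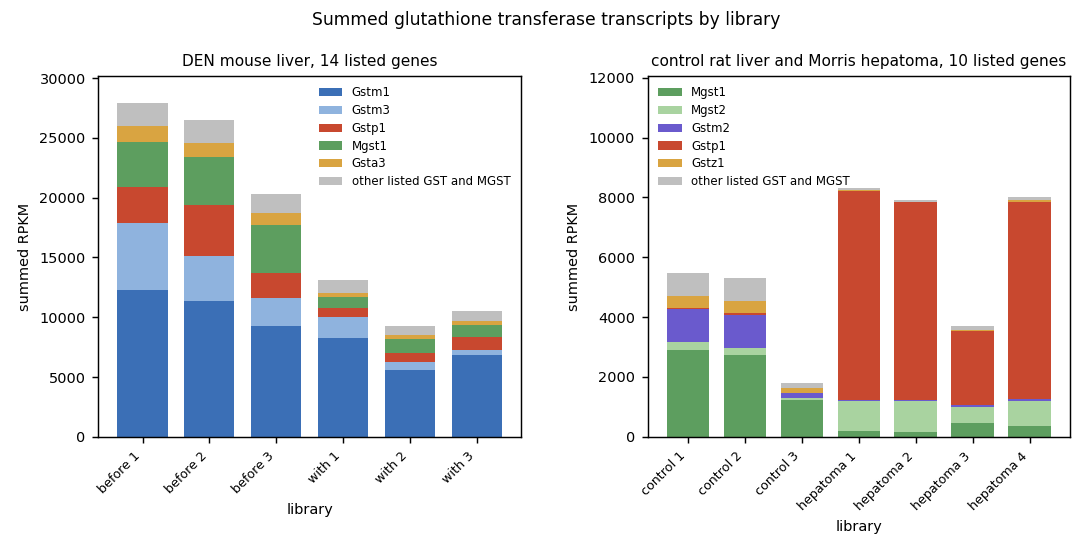
Summed RPKM of the listed glutathione transferases per library, stacked by gene, for DEN mouse liver (left, 14 genes, 3 libraries before and 3 with tumours) and for control rat liver and Morris hepatoma (right, 10 genes, 3 and 4 libraries). In mice the stacks are lower with tumours and Gstm1 is the largest block throughout, and in rats Gstp1 goes from 0.423% to 1.16% of the stack to 67.4% to 84.4%.

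Promoter windows were available from RefSeq (GRCr8) for 34 of the 40 rat genes, each from 250 bases before the annotated start to 50 after it, and not for Ces2a, Fmo4, Mgst2, Sult1e1 and Ugt1a5, among others. The 3 rising genes with a window and Ces1c, the deepest fall, are printed 5′ to 3′ to show where motifs named for regulators of these families occur. Capitals mark matches to the antioxidant response element core TGACNNNGC or to the AP-1 motif TGANTCA. They are Gstp1 (chr1:210769656-210769955, minus strand), Gstm5 (chr2:198219519-198219818, plus strand), Ugt1a7c (chr9:96187132-96187431, plus strand) and Ces1c (chr19:30099197-30099496, plus strand).
Gstp1: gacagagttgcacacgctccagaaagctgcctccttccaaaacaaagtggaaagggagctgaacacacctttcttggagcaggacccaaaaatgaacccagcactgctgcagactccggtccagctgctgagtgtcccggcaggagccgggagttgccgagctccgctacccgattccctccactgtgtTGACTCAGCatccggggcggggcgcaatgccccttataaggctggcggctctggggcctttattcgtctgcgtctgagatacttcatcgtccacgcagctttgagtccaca
Gstm5: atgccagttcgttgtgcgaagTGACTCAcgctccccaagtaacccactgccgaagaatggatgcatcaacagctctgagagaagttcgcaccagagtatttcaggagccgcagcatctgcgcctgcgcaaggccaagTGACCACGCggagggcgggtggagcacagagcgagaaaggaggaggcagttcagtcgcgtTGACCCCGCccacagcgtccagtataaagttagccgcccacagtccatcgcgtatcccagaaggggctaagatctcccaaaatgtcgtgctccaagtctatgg
Ugt1a7c: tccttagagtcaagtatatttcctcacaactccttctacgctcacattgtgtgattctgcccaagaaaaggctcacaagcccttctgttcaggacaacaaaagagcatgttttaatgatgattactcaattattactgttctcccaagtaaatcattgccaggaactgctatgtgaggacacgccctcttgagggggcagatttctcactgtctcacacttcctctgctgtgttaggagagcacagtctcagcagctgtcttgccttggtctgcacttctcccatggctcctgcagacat
Ces1c: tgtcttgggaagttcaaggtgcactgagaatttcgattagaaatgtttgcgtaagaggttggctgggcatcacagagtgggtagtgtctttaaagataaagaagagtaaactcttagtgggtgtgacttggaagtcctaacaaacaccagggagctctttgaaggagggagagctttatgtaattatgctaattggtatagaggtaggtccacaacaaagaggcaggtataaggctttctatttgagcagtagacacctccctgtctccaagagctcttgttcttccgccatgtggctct

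In the Gstp1 window bases 190 to 198, TGACTCAGC, match both motifs, which overlap there, and the annotated start follows base 250. The Gstm5 window holds the AP-1 motif at bases 22 to 28 and the antioxidant core at bases 138 to 146 and 198 to 206. The letters of these 2 motifs and of GTTAAT, a part of the HNF1 motif, were not in the windows of Ugt1a7c and Ces1c. Both strands were searched. The antioxidant core was in 12.1% of all 33469 rat windows and in 6 of the 34, with 2 of 3 rising and 3 of 22 falling genes. The AP-1 motif was in 7.33% of all windows and in 7 of the 34 (2 of 3 rising, 2 of 22 falling), and GTTAAT in 7.45% and in 5 (none of 3 rising, 3 of 22 falling). A match describes the letters only.

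All 6 listed carboxylesterases fell in hepatoma. Ces1c, the most abundant, was at 1023, 1164 and 115 RPKM in control and 9.16, 0.409, 26.5 and 20.8 in hepatoma, a log2 difference of -5.75 ± 1.39 (SE; limma adjusted p = 0.023). Control library 3 was far below the other controls and still above every hepatoma library. Ces1e went from 96.0, 101 and 7.45 to 0.665, 0.053, 2.25 and 2.11 RPKM (-4.41 ± 1.04, adjusted p = 0.021). Ces2a went from 118, 154 and 11.9 to 2.07, 0.0883, 4.74 and 2.75 RPKM (-4.41 ± 1.07, adjusted p = 0.023). These 3 calls were lost without control library 1, control library 2 or hepatoma library 1, with adjusted p up to 0.1, 0.085 and 0.099. Ces2e was more even among controls, at 55.4, 60.1 and 22.9 RPKM, with 0.939, 0.001, 1.86 and 1.90 in hepatoma (-4.44 ± 0.49, adjusted p = 0.00022). Ces2g and Ces2h fell by 2.59 and 3.46, Ces2g not without those same 3 libraries (adjusted p up to 0.092).

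Of 7 listed sulfotransferases 5 fell, and the summed level was 1005 to 1588 RPKM in control and 1.82 to 311 in hepatoma. Sult1c3 was at 417, 383 and 61.4 RPKM in control and 2.80, 0.13, 16.9 and 13.3 in hepatoma (-5.23 ± 1.26, adjusted p = 0.023). Sult1e1 was at 248, 249 and 86.3 RPKM in control and 5.30, 0.23, 16.5 and 9.07 in hepatoma (-4.86 ± 1.01, adjusted p = 0.012). Sult2a1, which sulfates bile acids and hydroxysteroids, was at 88.9, 51.2 and 176 RPKM in control and 2.91, 0.382, 15.8 and 9.83 in hepatoma (-4.07 ± 0.99, adjusted p = 0.023), and is the gene in which control library 3 was highest. Every one of these calls was lost without control library 1 or control library 2, with adjusted p up to 0.1, 0.058 and 0.1. Sult1c3 was also lost without hepatoma library 1 and with a pseudocount of 0.1 (adjusted p = 0.051), and Sult2a1 without hepatoma library 1 or control library 3. Sult1a1, the phenol sulfotransferase and the most abundant of the family, was at 637, 661 and 583 RPKM in control and 12.1, 0.49, 200.1 and 164 in hepatoma. Hepatoma libraries 1 and 2 were far below libraries 3 and 4, and the difference of -4.46 ± 1.89 did not pass (adjusted p = 0.17). Sult1b1, at 163, 163 and 92.5 RPKM in control and 2.28, 0.171, 58.6 and 30.0 in hepatoma, did not pass either (-3.89, adjusted p = 0.13). Sult1c2a fell by 3.18, not without control library 1 or 2 or hepatoma library 1 (adjusted p up to 0.083). Sult2b1 was at 3.28, 2.81 and 1.20 RPKM in control and 0.468, 0.392, 1.48 and 0.766 in hepatoma (-0.93 ± 0.28, adjusted p = 0.025), the only enzyme whose groups overlapped, and this call was lost without control library 1 or 2 or hepatoma library 1, 2 or 4 (adjusted p up to 0.1).

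Glucuronosyltransferases of the Ugt2 group were lower in all 7 listed genes by mean, and 5 of these fell. Ugt2b37 went from 245, 269 and 80.5 RPKM in control to 1.43, 0.001, 15.7 and 13.1 in hepatoma (-5.16 ± 1.20, adjusted p = 0.019). Ugt2b1 went from 76.7, 89.2 and 6.23 to 0.599, 0.0557, 1.34 and 1.10 RPKM (-4.45 ± 0.98, adjusted p = 0.015). Both were lost without control library 1 or 2, and Ugt2b37 without hepatoma library 1 too, with adjusted p up to 0.087 and 0.066, and Ugt2b37 also with a pseudocount of 0.1 (0.065). Ugt2a3, whose call held with any library left out but not with a pseudocount of 0.1 (adjusted p = 0.067), was at 25.6, 24.4 and 17.7 RPKM in control and 0.401, 0.001, 5.12 and 2.91 in hepatoma (-3.27 ± 0.68, adjusted p = 0.0096). In each of these genes hepatoma library 2 was the lowest and libraries 3 and 4 the highest of the group. The most abundant form, listed as Ugt2b17, was at 468, 529 and 176 RPKM in control and 3.38, 0.0601, 64.2 and 46.2 in hepatoma and did not pass (-5.01 ± 1.64, adjusted p = 0.073). Current RefSeq gives this gene the symbol Ugt2b15, and the gene listed as Ugt2b15 the symbol Ugt2b35. Ugt2b15 did not pass (-4.59 ± 1.40, adjusted p = 0.055), Ugt2b fell by 1.52, and Ugt2b10 fell by 3.09. Ugt1a1 was at 72.0, 99.7 and 33.1 RPKM in control and 2.90, 2.09, 25.9 and 18.1 in hepatoma and did not pass (-2.83, adjusted p = 0.08).

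The other glutathione transferases fell in all 7 listed genes. Mgst1 went from 2909, 2721 and 1218 to 202, 145, 462 and 359 RPKM (-3.01 ± 0.46, adjusted p = 0.00062). Gstz1 went from 406, 424 and 146 to 13.4, 12.0, 38.8 and 42.3 RPKM (-3.63 ± 0.61, adjusted p = 0.0026). Gsta4 was at 82.5, 77.6 and 34.4 RPKM in control and 11.4, 3.77, 9.86 and 12.7 in hepatoma (-2.67 ± 0.45, adjusted p = 0.0018). These 3 calls held with any library left out. Gstm2 was at 1107, 1104 and 139.8 RPKM in control and 34.7, 21.9, 67.2 and 72.8 in hepatoma (-3.63 ± 0.88, adjusted p = 0.021). It was the most abundant listed cytosolic form in control liver by mean, though Gstz1 was higher in control library 3. Gstk1 was at 323, 284 and 114 RPKM in control and 5.09, 4.48, 41.4 and 26.6 in hepatoma (-3.97 ± 0.91, adjusted p = 0.017). Mgst3 was at 328, 330.2 and 34.2 RPKM in control and 12.5, 11.0, 24.7 and 19.9 in hepatoma (-3.19 ± 0.89, adjusted p = 0.037). In all 3 control library 3 was the lowest control. Gstm2 was lost without control library 1 or 2 or hepatoma library 1 (adjusted p up to 0.086), Gstk1 without control library 1 or 2 (up to 0.079), and Mgst3 without any library but control library 3 (up to 0.14). Gsta5, now Gsta3 in RefSeq, fell by 2.67, not without control library 1 or 2 or hepatoma library 1 (up to 0.078).

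Among epoxide hydrolases and flavin monooxygenases the spread between hepatoma libraries was wide. Ephx1 was at 1140.0, 1345 and 121 RPKM in control and 7.91, 1.75, 106 and 65.6 in hepatoma and did not pass (-4.80 ± 1.65, adjusted p = 0.086). Fmo5 fell from 111, 136 and 122 to 8.80, 7.37, 57.8 and 35.3 RPKM (-2.59 ± 0.76, adjusted p = 0.042), lost without any 1 control library or hepatoma library 1 (adjusted p up to 0.16). Fmo4, a low gene, fell from 4.43, 4.70 and 2.74 to 0.364, 0.474, 1.25 and 1.25 RPKM (-1.45 ± 0.24, adjusted p = 0.00066), and this call held with any library left out.

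The enzymes can be set beside hepatocyte markers within each hepatoma library, as a share of the control mean that was left. The 8 listed markers were at 0.695% to 1.39% of control in library 1, 0.0139% to 0.163% in library 2, 12.1% to 51.5% in library 3 and 10.3% to 33.0% in library 4. None of these markers passed the limma test of hepatoma against control. Of the 33 enzymes with a lower hepatoma mean, 25 in library 1 and 15 in library 2 were above all 8 markers. In library 3 this was so for 1 enzyme and in library 4 for none, while 13 and 15 were below all markers. In library 2 all 7 glutathione transferases lay above the markers, at 1.86% to 6.34% of control, as did 2 of 3 flavin monooxygenases, 2 of 7 sulfotransferases, 2 of 9 glucuronosyltransferases, 1 of 6 carboxylesterases and Ephx1. Some of those above were near the floor in library 2, with Ugt1a5 at 0.0241, Ces2g at 0.0771, Sult2b1 at 0.392 and Fmo4 at 0.474 RPKM. Their control means were 2.43 to 12.5 RPKM, against 381 to 58551 for the markers. The markers Tat, Cps1, Pck1 and Tdo2 were low there too, at 0.0671 to 0.631 RPKM, so such shares are uncertain. The 5 enzymes below the markers in library 2 (Ces2e, Ces2h, Ugt2a3, Ugt2b10 and Ugt2b37) were listed with no reads there. No test was made of these shares, which all rest on the same 3 control libraries. Control library 3 was at a median of 35.6% of the mean of the other controls for the 33 enzymes. For the markers it was at 75.6% to 198%, apart from Ttr at 25.0%. Ces1c, Ces1e and Ces2a, which lay below the markers in hepatoma libraries 3 and 4, had 10.5%, 7.58% and 8.73%. Their place below the markers thus depends on control libraries 1 and 2.

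**Figure D4:**
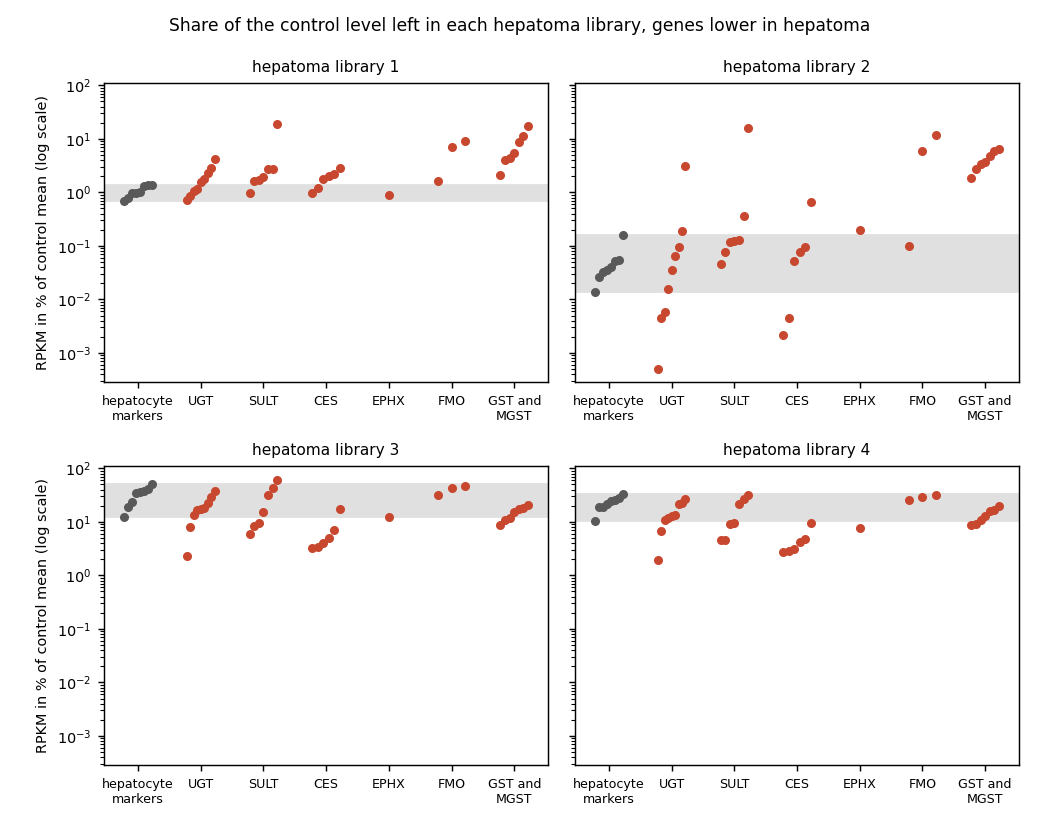
RPKM in each hepatoma library as a percentage of the control mean (log scale), 1 panel per library, for 8 hepatocyte markers (grey points and band, their full range) and the 33 enzymes with a lower hepatoma mean (red), grouped by family. In libraries 1 and 2 the glutathione transferases lie above the band, and in libraries 3 and 4 most carboxylesterases lie below it. Points under 0.01% in library 2 stand for genes with no reads.

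The counts in the pathway lists were mixed in the hepatoma, where 85.5% of all tested genes rose and 8.73% fell. Of 14 tested donor genes 6 fell and 5 rose (median -1.05, all tested genes 1.58), with Gnmt (-4.90) and the sulfate transporters Slc26a1 (-4.09) and Slc13a4 (-2.89) furthest down and Papss1 (3.42), Chac1 (2.56), which breaks glutathione down, and Gss (1.48) furthest up. Papss1 and Papss2 both make the sulfate donor, and Papss2 fell by 2.20; it was picked after its value was seen. In the regulator list 8 of 13 tested genes rose (median 0.57), a smaller share than of all genes, with Ahr (2.45), Arnt (1.21) and Nfe2l2 (0.96) furthest, and 2 fell, Nr1h4 (-2.81) and Rxra (-1.26). With library medians set equal 1 gene of this list was higher (Ahr) and 12 of 14 tested were lower. Arnt and Nfe2l2 then turned to -0.51 and -0.97, and Gss to -0.44. Of 11 tested other transferases and hydrolases 7 fell, with Pon1 (-6.01), Glyat (-4.72) and Pon3 (-4.21) furthest, and Gusb rose by 0.97, which was -0.89 with medians set equal. Among 6 efflux transporters Abcc1, Abcc3, Abcc4 and Abcc5 rose, by 1.55 to 2.99, and Abcc2 and Abcc6, known from hepatocytes, fell (-3.82 and -3.40). With medians set equal 3 were higher and 2 lower.

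In regenerating liver only 5 of these enzymes were listed, all with higher means than control. Of these 3 rose, against 21.2% of all genes tested in that table (0.763% fell). Ces2c, a carboxylesterase, was at 18.3, 25.0 and 25.9 RPKM in control and 60.0, 51.1, 50.7 and 72.5 in regenerating liver (1.31 ± 0.17, adjusted p = 0.011). Sult2a6, a hydroxysteroid sulfotransferase, was at 24.1, 25.4 and 63.6 RPKM in control and 96.8, 142, 103 and 129 in regenerating liver (1.75 ± 0.32, adjusted p = 0.04), with control library 3 the highest control. All 4 regenerating libraries lay above it. Gstm5 was at 1.49, 1.41 and 1.23 RPKM in control and 2.74, 3.27, 2.82 and 4.93 in regenerating liver (0.88 ± 0.16, adjusted p = 0.033). Ces2e was at 55.4, 60.1 and 22.9 RPKM in control and 104, 117, 109 and 113 in regenerating liver and did not pass (1.36 ± 0.29, adjusted p = 0.062). Ugt2a3 was at 25.6, 24.4 and 17.7 RPKM in control and 29.0, 49.9, 45.1 and 42.1 in regenerating liver and did not pass (0.84 ± 0.20, adjusted p = 0.07). In none of the 5 genes did the ranges overlap, as was so for 92.8% of all listed genes. The 3 rises depended on scaling and on single libraries. With library medians set equal, which moved the median of all genes from 0.53 to -0.15, none passed, and none passed without control library 1. Ces2c was then at adjusted p = 0.065 and Sult2a6 at 0.16. The Sult2a6 call was also lost without control library 2 or regenerating library 1, 2 or 4. Gstm5 was lost without any 1 control library or regenerating library 1 or 2 (adjusted p up to 0.13). Without control library 2 or regenerating library 2, 1 gene passed in each case. Rises over all tested genes dropped as well, from 361 to 36 with medians set equal and to 20 without control library 1. They numbered 41 without control library 2 and 78 without regenerating library 2. From the pathway lists 5 donor genes, 3 genes of the regulator list and 2 other transferases and hydrolases were tested. Only Por and Rxra, of the regulator list, were called. These 2 genes rose by 1.03 and 0.75, and did not pass with medians set equal (0.22 and -0.05).

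Both groups of rat liver were set against each other directly for the 3 enzymes listed in both rat tables. Such genes had a p-value of the authors under 0.05 against the same 3 controls in each table. Ces2e and Ugt2a3 were listed as lower in hepatoma and higher in regenerating liver, so this selection already set the direction of their difference. Ces2e was at 104, 117, 109 and 113 RPKM in regenerating liver and 0.939, 0.001, 1.86 and 1.90 in hepatoma, a log2 difference of -5.80 ± 0.31 (SE; limma adjusted p = 4e-07). Ugt2a3 was at 29.0, 49.9, 45.1 and 42.1 RPKM in regenerating liver and 0.401, 0.001, 5.12 and 2.91 in hepatoma (-4.12 ± 0.61, adjusted p = 0.0065). Gstm5 was at 2.74, 3.27, 2.82 and 4.93 RPKM in regenerating liver and 34.1, 33.6, 21.7 and 31.3 in hepatoma (2.82 ± 0.19, adjusted p = 7.4e-08). Ces2e and Ugt2a3 were thus lower and Gstm5 higher in hepatoma, with no overlap in any of the 3 (89.3% of all genes in both tables did not overlap), against 4% of all tested genes lower and 80.8% higher. All 3 calls held with any library left out, and Ugt2a3 missed the threshold with a pseudocount of 0.1.

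Mouse and rat tables shared 19 enzyme symbols, 40.4% of the mouse and 50% of the hepatoma genes, and no test joins the species. A shared symbol is not always the same gene in Ces and Ugt2b clusters. In 14 the mean was lower with tumours and in hepatoma, and 10 of these fell in both tables. Over all tested genes 49.5% fell in mice and 8.73% in hepatoma. The share of all shared symbols that fell in both was not computed, so these counts have no background beside them. The log2 differences stand side by side for Sult1e1 (-3.73 in mice, -4.86 in rats), Ces2a (-4.52 and -4.41) and Ces1e (-2.67 and -4.41). Ces2e (1.46 and -4.44), Fmo4 (1.00 and -1.45) and Mgst3 (1.55, not passing, and -3.19) were higher in mice and lower in rats, as was the mean of Sult2b1. Gstp1 alone was lower in mice and higher in rats (-1.81 and 7.36). These contrasts between species were not tested, and the plot of genes listed in more than 1 table gives all values with their errors.

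**Figure D5:**
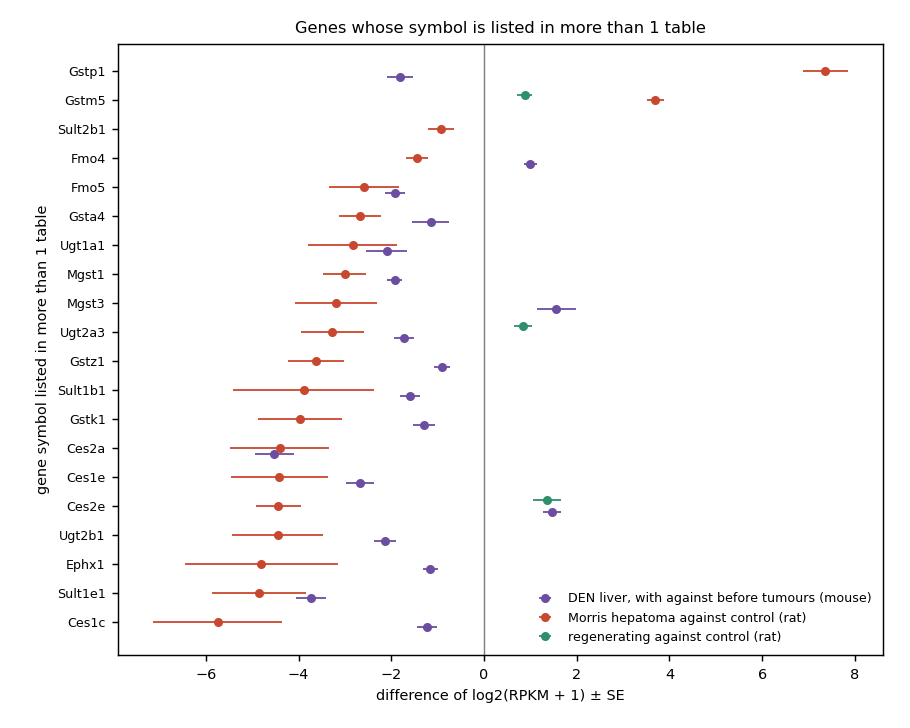
Difference of log2(RPKM + 1) ± SE for each enzyme symbol listed in more than 1 table: DEN mouse liver with against before tumours (purple), Morris hepatoma against control (red) and regenerating against control rat liver (green). Gstp1 and Gstm5 are the 2 red points to the right of 0, and Ces2e, Mgst3 and Fmo4 have a purple point right of 0 and a red point left of it.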

How the data were processed

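RNA of 17 libraries was measured by sequencing: 6 of mouse liver, 3 of control rat liver, 4 of rat hepatoma and 4 of regenerating rat liver, grouped by the treatment labels. The authors deposited 3 tables of RPKM per gene and library, which per the file headers also hold the log2 ratio of the group means and a p-value. The headers name no unit, and RPKM is how the values were read. The aligner, genome build and counting are not given in the sources used here. Every deposited p-value was under 0.05, and 1 line without a gene was left out.

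A gene was tested where it reached 1 RPKM in a number of libraries no smaller than the smaller group. limma 3.58.1 in R 4.3.3 was fitted to log2(RPKM + 1) of the whole table, two-sided, with its trend and robust options. Benjamini-Hochberg adjustment counted every protein-coding gene (21951 of mouse in GENCODE M21, 23154 of rat in RefSeq GRCr8), since the tables hold preselected genes. The fit was tested on simulated data. Python 3.11.15 with pandas 2.3.3, numpy 2.4.6 and matplotlib 3.10.9 did the rest. Gene names matched GENCODE M21 for 47 of 47 mouse genes and RefSeq gene IDs for 39 of 40 rat genes.

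The members, lists, tests and alternatives were chosen with earlier results of these data known. Named with every library's value are the 12 largest called changes per comparison and direction, genes in more than 1 table, and the most abundant gene of each family; in lists, up to 3 called genes per direction. The values of 1 gene are not reported here. Alternatives were the pseudocount, filters, scalings, limma settings, the adjustment, libraries left out, a replicate block and a joint rat fit.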

Additional observations from a re-analysis of the deposited data

Results flagged for a closer look

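Within the 4 hepatoma libraries, Gstp1 in library 3 (2484 RPKM) lay far from the others: its gap to the next library was 0.911 of the group's whole range, above Dixon's 95% limit for 4 samples. This was 1 of 43 groups of 4 libraries looked at, and chance gives about 1 in 20.

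Several symbols moved in opposite directions in every library of the mouse and rat tumour groups, a contrast that was not tested. The ratio of group means, tumour over non-tumour, was 2.83 in mice and 0.0255 in rats for Ces2e, 2.32 and 0.211 for Fmo4, and 2.81 and 0.0737 for Mgst3. For Gstp1 it was 0.278 in mice and 162 in rats.

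Hepatoma and regenerating liver differed for all 3 enzymes listed in both rat tables by limma's direct comparison: Ces2e by -5.80 (adjusted p = 4e-07), Ugt2a3 by -4.12 (0.0065) and Gstm5 by 2.82 (7.4e-08). Ces2e and Ugt2a3 were listed as lower in hepatoma and higher in regenerating liver than the same controls, which already set the direction. The libraries did not overlap for any of the 3, as was so for 89.3% of all genes in both tables.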

How the results depend on the processing

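With no filter or with library medians set equal, 4 enzymes in place of 2 were higher in DEN liver with tumours, and after quantile normalization 23 in place of 38 were lower. Gstt2, which was not called, changed sign under both scalings (0.022 and 0.24). Leaving out 1 library gave 2 to 4 higher and 30 to 38 lower, and 22 of 40 calls held in every alternative run. In the hepatoma, 2 enzymes in place of 4 were higher with medians set equal, leaving out 1 library gave 9 to 29 lower, and a joint fit of the rat groups, which tests 3 enzymes, gave 1 higher and 2 lower; 8 of 30 calls held throughout. In regenerating liver the 3 rises became 1 with a filter at 5 RPKM, 0 with either scaling, 5 with adjustment over the tested genes alone, 1 in the joint fit and 0 to 3 without 1 library, and none of the 3 calls held throughout. Hepatoma against regenerating liver had 1 lower in place of 2 with a pseudocount of 0.1. Leaving out 1 library moved the counts of all tested genes too. In DEN liver 922 to 1962 were then lower, in place of 1823. In the hepatoma 346 to 838 were lower, in place of 719. In regenerating liver 20 to 338 were higher, in place of 361. The causes were not tested. The labels do not say that same-numbered libraries are paired, so the replicate block has no basis in them. Correlations of deviations were -0.32 to 0.15 for same-numbered and -0.23 to 0.32 for other libraries. With so few libraries these cannot show or exclude a pairing. With the block, 37 enzymes were lower and 2 higher in DEN liver, 7 lower and 4 higher in hepatoma, and 0 higher in regenerating liver. Over all tested genes it gave 1436 lower in DEN liver, 239 lower in hepatoma and 25 higher in regenerating liver. The block fits of hepatoma and regenerating liver against control use libraries 1 to 3 of each group. Depth per library is unknown and limits what low genes can show.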
